A study of Mus musculus with 4 samples.

Results

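The genes described here encode the ADAM, ADAMTS and ADAMTS-like proteins of the mouse, measured in skeletal stem cells with and without Mmp14. Members were taken by gene symbol (Adam, Adamts or Adamtsl followed by a number) from probe sets annotated with exactly 1 symbol, and the brightest probe set stood for each gene. This gave 56 of the 22180 genes on the array, of which 33 were ADAM, 18 ADAMTS and 5 ADAMTS-like genes. Adamts2 and Adam34 were not analysed here.

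ADAMs are membrane-anchored proteins with a metalloproteinase and a disintegrin domain, and the catalytically active ones release the outer parts of growth factors, cytokine receptors and Notch from the cell surface. ADAMTS proteins are secreted relatives that carry thrombospondin repeats and bind to the matrix, where different clades cut proteoglycans such as aggrecan and versican, remove the N-propeptide of procollagens or act on fibrillin microfibrils. ADAMTS-like proteins share the repeats but lack the protease domain, and several of them bind fibrillin. In skeletal tissue the family is best known for aggrecan breakdown in cartilage.

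The 4 arrays held RNA of skeletal stem cells from mice of 4 to 6 weeks. There were 2 arrays of Mmp14+/+ (wild-type) cells and 2 of Mmp14-/- (knockout) cells, numbered 1 and 2 in each group, and all cells had spent 48 h in 3D collagen gel. Mmp14 encodes MT1-MMP, a membrane-anchored collagenase. The labels do not say from which bones or from how many animals the cells came, their sex, the region of Mmp14 that was deleted, or whether the 2 arrays of a group were separate cultures. P-values therefore describe the spread among these 4 arrays alone, and that spread may be technical. Each group mean below has n = 2. Values are log2 intensities, and every difference is knockout minus wild type on that scale. Levels of different genes are not compared with each other, because each probe set has its own brightness, and the number of arrays limits the precision. In bulk RNA, fewer cells of a type and less RNA per cell cannot be told apart.

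Mmp14 measured 8.77 and 8.83 in wild type against 5.77 and 5.84 in knockout, a fall of 2.99 (limma adjusted p = 0.000278). Of 12 measured markers of skeletal stem and stromal cells, all passed the level set for dim genes (2.34). Pdgfra, Cxcl12, Nt5e and Cd200 were called higher and Lepr lower in knockout, where 6.20% of all tested genes were called higher and 5.12% lower. The other 7 were not called: Itgav (0.58), Pdgfrb (0.35), Prrx1 (−0.01), Col1a1 (−0.16), Eng (−0.23), Thy1 (−0.50) and Grem1 (−0.67). The call of Cd200 was lost when wild-type array 1 (limma adjusted p = 0.0739) or wild-type array 2 (0.0572) was left out. All 5 endothelial markers lay below the level for dim genes. Of 7 macrophage and leukocyte markers 4 lay below it, Ptprc among them, and Cd68, Cd14 and Csf1r lay above it, as did the osteoclast markers Acp5 and Ctsk. Of 5 tested smooth muscle and pericyte markers, Rgs5 fell by 1.07 and Mcam rose by 0.69. Acta2 (−0.14), Myh11 (0.11) and Des (−0.14) were not called. Mcam was not called when knockout array 1 was left out, and its difference ran from 0.62 to 0.76 with each array left out. Of 4 skeletal muscle markers, Pax7 rose by 1.31, Ckm (0.19) was not called, and Myod1 and Myog lay below the level. Xist rose by 0.73 and the Y-linked gene Eif2s3y fell by 0.69 in the same arrays. The call of Xist was lost when knockout array 1 was left out (limma adjusted p = 0.0801). That of Eif2s3y (0.0474) was lost when wild-type array 1 (0.107), knockout array 1 (0.176) or knockout array 2 (0.0648) was left out and with no filter on dim genes (0.0676). The Y-linked genes Kdm5d (−0.42) and Uty (−0.25) were not called. The part of these shifts in the results below was not tested.

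Of the 56 members, 30 reached a mean of 2.34 and were tested in 1 limma fit of 12708 genes. A gene was called at a Benjamini-Hochberg adjusted p below 0.05. In knockout, 9 members were called higher (8 without Adamts18, which was above 2.34 in knockout alone) and 3 lower, where 6.20% of all tested genes were called higher and 5.12% lower. The median difference was 0.30 over the 30 tested members and −0.0041 over all tested genes. Both knockout arrays lay above both wild-type arrays in 18 members and below them in 7 (28.0% and 29.8% of all tested genes), and 13 of these members were not called. With 2 arrays against 2, an exact permutation test of a single gene cannot give a p under 0.333, so the calls rest on the spread that limma pools over genes.

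**Figure D1:**
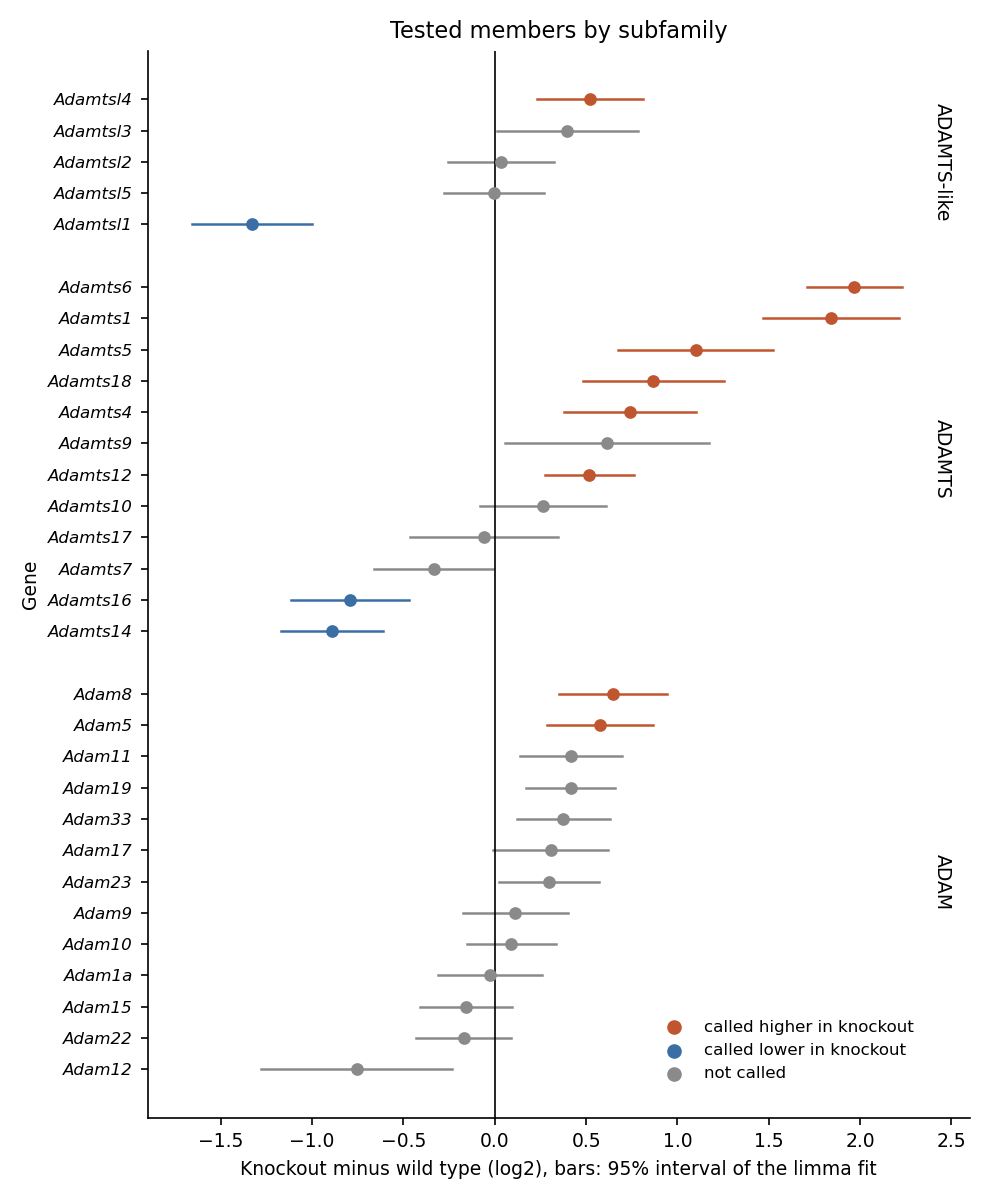
Difference between Mmp14 knockout and wild type (log2, horizontal axis) for the 30 tested members, grouped by subfamily, with the 95% interval of the limma fit as bars and colour for the call. Adamts6 (1.97) and Adamts1 (1.84) lie farthest to the right and Adamtsl1 (−1.33) farthest to the left, while all tested ADAM genes except Adam12 (−0.76) lie between −0.17 and 0.65.

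The largest rises were among the ADAMTS proteases, and so were 2 of the 3 falls. Of 18 ADAMTS genes, 12 were tested, 6 (Adamts18 included) rose, 2 fell and 4 were not called. Of 33 ADAM genes, 13 were tested, of which 2 rose and 11 were not called. All 5 ADAMTS-like genes taken by symbol were tested, with 1 higher, 1 lower and 3 not called. For comparison, 6.20% of all tested genes were called higher and 5.12% lower. Thsd4, also known as ADAMTSL6, was not among the 5 ADAMTS-like genes and is described with the microfibril genes. Median differences of the tested genes were 0.56 for ADAMTS, 0.30 for ADAM and 0.03 for ADAMTS-like genes. Whether the subfamilies differ was not tested.

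Promoter sequence was at hand for 30 of the 56 members and for 6 of the 12 called ones (Adam8, Adamts1, Adamts12, Adamts14, Adamts18 and Adamtsl4). The 250 bases before the transcription start are shown for Adamts1, which had the largest rise of these 6, and Adamts14, the only one that fell. They are from RefSeq, build GRCm38.p6, at chr16:85803114-85803363 and chr10:61273420-61273669, both on the minus strand and written 5′ to 3′ towards the start. Capitals mark the motifs found.
Adamts1: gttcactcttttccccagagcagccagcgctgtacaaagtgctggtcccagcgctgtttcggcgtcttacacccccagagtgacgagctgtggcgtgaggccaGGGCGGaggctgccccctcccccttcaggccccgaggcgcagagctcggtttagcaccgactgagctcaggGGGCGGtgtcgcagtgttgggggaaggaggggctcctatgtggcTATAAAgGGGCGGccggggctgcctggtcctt
Adamts14: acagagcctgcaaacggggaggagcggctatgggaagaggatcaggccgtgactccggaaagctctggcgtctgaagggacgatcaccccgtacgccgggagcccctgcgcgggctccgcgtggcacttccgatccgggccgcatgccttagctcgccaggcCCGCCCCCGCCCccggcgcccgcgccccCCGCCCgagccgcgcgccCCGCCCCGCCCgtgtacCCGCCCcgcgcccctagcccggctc

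The Adamts1 window holds a TATA box (letters TATAAA) that begins 32 bases before the start and 3 GC boxes (letters GGGCGG), and the Adamts14 window holds 6 GC boxes and no TATA box. Both strands were searched and overlapping matches were counted. Of the 32851 promoter windows of the same length, 12.4% hold a TATA box and 32.7% a GC box. Neither window holds the letters of AP-1 (TGANTCA, in 6.7% of windows), the cyclic AMP element (TGACGTCA, 1.5%), TCF/LEF (CTTTGA, 13.8%), TEAD (GGAATG, 12.6%), RUNX (TGTGGT, 14.0%) or the CCAAT box (33.8%), which says only that these letters are not in these 250 bases. GC content is 65.6% for Adamts1 and 76.4% for Adamts14, against a median of 52.4% over all windows. High GC content was not particular to called members. In the windows at hand of tested members without a call, it ran from 38.0% (Adam1a, 0 GC boxes) to 80.0% (Adamtsl3, 4 GC boxes).

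Among the hyalectanases, the ADAMTS clade that cuts aggrecan and versican, 3 genes rose in knockout. Of 7 members of the clade 4 were tested, with Adamts1, Adamts4 and Adamts5 called higher and Adamts9 not called, and their median difference was 0.92. The share called higher over all tested genes was 6.20%. Adamts1, which cuts versican and aggrecan, measured 6.00 and 5.84 in wild type against 7.94 and 7.58 in knockout. The knockout arrays differed by more than the wild-type arrays, and the groups lay well apart. Adamts1 rose by 1.84 (limma, SE 0.152 and adjusted p = 0.00196), a 3.58-fold increase.

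Adamts5, the main aggrecanase of mouse cartilage, measured 7.29 and 6.94 in wild type against 8.39 and 8.04 in knockout. The arrays of a group lay about equally far apart in both groups, and the groups did not overlap. It rose by 1.10 (limma, SE 0.174 and adjusted p = 0.0143), which is 2.14-fold. Adamts4, another aggrecanase gene, stood at 5.04 and 4.67 in wild type against 5.64 and 5.56 in knockout, a rise of 0.74 (limma, SE 0.147 and adjusted p = 0.0296). The wild-type arrays of Adamts4 lay farther apart than the knockout arrays. Its call was lost when wild-type array 2 (adjusted p = 0.0681), knockout array 1 (0.106) or knockout array 2 (0.0657) was left out.

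Adamts9, a versican-cleaving protease also needed for cilia, measured 4.63 and 4.80 in wild type against 5.67 and 4.98 in knockout. Both knockout arrays were higher, but they differed from each other by more than the lower one differed from wild type. The difference was 0.61 with an interval of 0.05 to 1.17 (limma adjusted p = 0.15). It rested on which knockout array was used: with knockout array 1 left out it was 0.27 (adjusted p = 0.475), and with knockout array 2 left out it was 0.96 and was called (0.0188). The other 3 members of the clade, Adamts8, Adamts15 and Adamts20, lay between 1.60 and 2.15 on every array, below the level for dim genes, and were not tested.

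**Figure D2:**
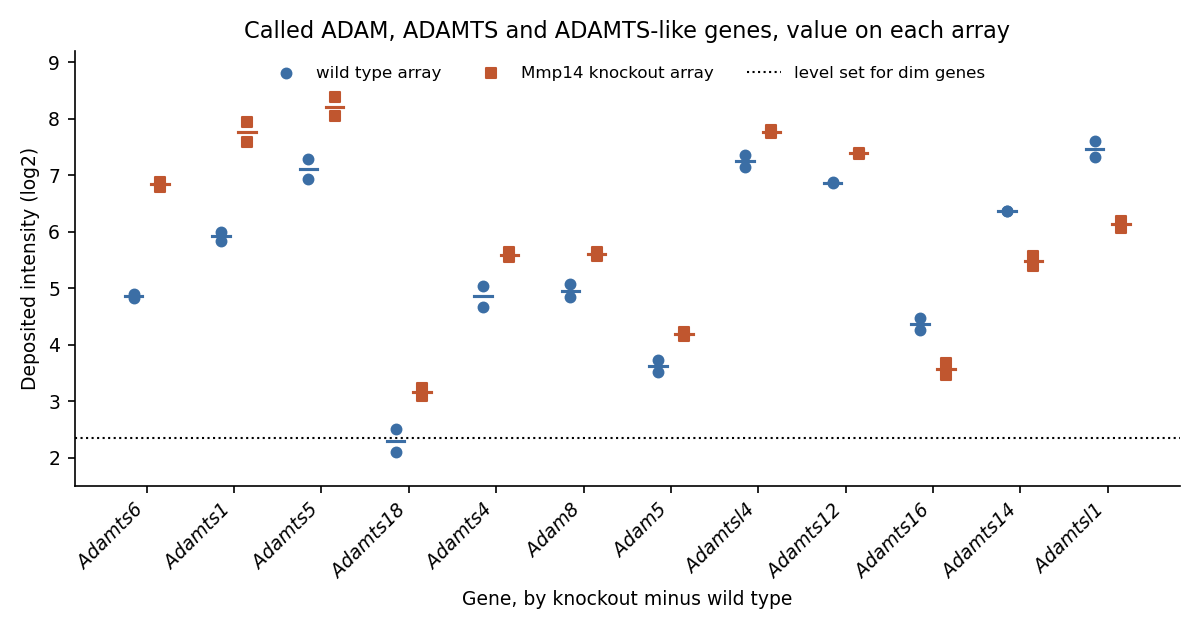
Deposited intensity (log2, vertical axis) of the 12 called members on each of the 4 arrays, ordered by knockout minus wild type, with group means as short lines and the level for dim genes (2.34) dotted. The groups are separate for every gene shown, and the wild-type arrays of Adamts18 lie on both sides of the dotted line.

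Adamts1 and Adamts5 lie next to each other among the protein-coding genes of chromosome 16 in the RefSeq annotation. The protein-coding neighbour beyond Adamts1, Cyyr1, fell by 0.73 (limma adjusted p = 0.0129), from a mean of 3.82 to 3.09. That call was lost when knockout array 1 was left out (adjusted p = 0.0696), and over the mean of the probe sets of Cyyr1 the difference was −0.41 and was not called. Beyond Adamts5, the methyltransferase gene N6amt1 had a difference of 0.47 (limma adjusted p = 0.0508) and was not called, though its adjusted p was 0.0499 where genes with several probe sets were averaged. Next to Cyyr1, App, the amyloid precursor gene, had a difference of 0.01. The 2 rises were thus flanked by 1 gene that fell and 1 that was not called. Another adjacent pair of the clade, Adamts15 and Adamts8 on chromosome 9, was too dim to test.

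Adamts6 had the largest difference of any member. It is a close relative of Adamts10, and both have been tied to fibrillin microfibrils. Adamts6 measured 4.91 and 4.83 in wild type against 6.89 and 6.78 in knockout. The arrays of each group lay close together, and the groups far apart. The rise was 1.97 (limma, SE 0.106 and adjusted p = 0.000967), or 3.92-fold. Adamts10 measured 5.97 and 6.31 in wild type against 6.39 and 6.42 in knockout, a difference of 0.27 with an interval of −0.08 to 0.61 that was not called. The interval of Adamts6, from 1.71 to 2.23, lay above that of Adamts10.

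In the pair Adamts7 and Adamts12, 2 large proteases that can cut the cartilage protein COMP, only Adamts12 was called. Adamts12 measured 6.88 and 6.85 in wild type against 7.38 and 7.39 in knockout, a rise of 0.52 (limma, SE 0.0995 and adjusted p = 0.0266). Its replicates were nearly equal in both groups. The call was nonetheless lost on leaving out any 1 of the 4 arrays (adjusted p from 0.0641 to 0.131), with differences that stayed between 0.50 and 0.53. Adamts7 measured 4.31 and 4.00 in wild type against 3.83 and 3.81 in knockout, a difference of −0.33 with an interval of −0.66 to −0.0072 that was not called.

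Of Adamts16 and Adamts18, which form a pair by sequence, Adamts16 fell. Adamts16 measured 4.47 and 4.26 in wild type against 3.68 and 3.46 in knockout. It fell by 0.79 (limma, SE 0.132 and adjusted p = 0.0169), and the call was lost when wild-type array 1 (adjusted p = 0.0537) or knockout array 2 (0.0648) was left out. Adamts18 stood at 2.50 and 2.10 in wild type against 3.10 and 3.24 in knockout (difference 0.87, limma adjusted p = 0.0228). Its wild-type mean of 2.30 was below the level for dim genes and it passed the filter through its knockout arrays alone, so no fold is given and the size of its difference is uncertain. With knockout array 2 left out the adjusted p was 0.0674.

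Adamts14, an enzyme of the clade that removes the N-propeptide of fibrillar procollagens, fell in knockout. It measured 6.37 on both wild-type arrays and 5.58 and 5.38 in knockout. The fall of 0.89 (limma, SE 0.113 and adjusted p = 0.00749) was 1.85-fold and larger than the gap between the knockout arrays. A second, dim probe set of Adamts14 (2.42 and 2.49 against 2.18 and 2.22) gave −0.26, and the mean of both probe sets gave −0.57, which was still called. Adamts3, of the same clade, measured 1.89 and 1.78 in wild type against 2.02 and 2.39 in knockout and was too dim to test.

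The remaining ADAMTS genes did not pass the test or the filter. Adamts17, tied like Adamts10 to fibrillin, measured 2.78 and 3.07 in wild type against 2.70 and 3.04 in knockout, a difference of −0.06 with an interval of −0.46 to 0.34. Its relative Adamts19 and Adamts13, which cuts von Willebrand factor, lay between 1.97 and 2.36 on all arrays. The mean of Adamts13 was 2.27 in wild type and 2.34 in knockout.

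Among the ADAMTS-like genes, Adamtsl1 fell and Adamtsl4 rose. Adamtsl1, which encodes the matrix protein punctin, measured 7.61 and 7.32 in wild type against 6.07 and 6.20 in knockout. The groups were separated by more than 1 log2 unit. The fall of 1.33 (limma, SE 0.134 and adjusted p = 0.00359) was 2.51-fold and the largest decrease of any member tested.

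Adamtsl4, a fibrillin-binding protein that keeps the lens in place, measured 7.36 and 7.14 in wild type against 7.74 and 7.80 in knockout. It rose by 0.52 (limma, SE 0.118 and adjusted p = 0.044). Among other settings, the call was lost when wild-type array 2 (adjusted p = 0.124), knockout array 1 (0.139) or knockout array 2 (0.162) was left out, with no filter on dim genes (0.0689), and with the arrays centred on their medians (0.0564). Adamtsl3 measured 6.71 and 6.82 against 7.37 and 6.96, a difference of 0.40 that was not called (limma adjusted p = 0.172) and that ranged from 0.19 to 0.60 with each array left out. Adamtsl2, which binds latent TGF-beta binding protein, and Adamtsl5 had differences of 0.03 (interval −0.25 to 0.32) and −0.0037 (interval −0.28 to 0.27).

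Of the 9 somatic ADAMs with an active protease site, 8 were tested and Adam8 alone was called. Adam8, a sheddase of leukocytes and osteoclasts, measured 4.84 and 5.07 in wild type against 5.64 and 5.57 in knockout. It rose by 0.65 (limma, SE 0.12 and adjusted p = 0.0238), or 1.57-fold. The call was lost when wild-type array 1 (adjusted p = 0.0655), knockout array 1 (0.108) or knockout array 2 (0.0664) was left out. Of 7 macrophage and leukocyte markers none was called, with Ptprc, Adgre1, Itgam and Tyrobp below the level for dim genes, and the sum of the 7 log2 values ran from 17.7 to 18.2 in wild type and from 17.2 to 17.7 in knockout. Of 4 osteoclast markers, Ocstamp and Calcr were below the level for dim genes. Acp5 (−0.56, limma adjusted p = 0.0528) and Ctsk (0.17) were tested and not called. The sum of the 4 log2 values ran from 12.9 to 13.1 in wild type and from 12.27 to 12.97 in knockout. Both sums include genes below the level for dim genes and do not measure leukocyte or osteoclast content. The part of such cells in the rise of Adam8 was not tested.

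The main sheddases had small differences. Adam10, the protease that starts Notch cleavage, measured 8.59 and 8.56 in wild type against 8.66 and 8.67 in knockout, a difference of 0.09 with an interval of −0.15 to 0.33. Adam17, which releases TNF and EGF receptor ligands, measured 7.01 and 6.87 against 7.37 and 7.12, a difference of 0.31 with an interval of −0.0092 to 0.62. Adam9 (7.90 and 7.88 against 8.11 and 7.89) and Adam15 (6.94 and 6.93 against 6.74 and 6.82) had differences of 0.11 and −0.16. A second probe set of Adam15 had a difference of the opposite sign, 0.10, and the mean of both gave −0.03. None of these 4 genes was called, and the intervals of the brightest probe sets leave out changes of 2-fold or more in either direction.

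Adam12 and Adam19, the meltrins of mesenchymal cells, differed in opposite directions without a call. Adam12 measured 8.12 and 7.88 in wild type against 6.94 and 7.55 in knockout. Both knockout arrays were lower, and they differed clearly from each other, knockout array 1 being the lower. The difference was −0.76 (limma, SE 0.214 and adjusted p = 0.0775). With knockout array 1 left out it was −0.45 (adjusted p = 0.23), and with knockout array 2 left out it was −1.06 and was called (0.0156). Of 13 alternatives 3 called it, the others being the stricter filter (0.0216) and trend and robust eBayes (0.021). Adam19 measured 5.85 and 5.86 against 6.26 and 6.28. Its difference of 0.42 (limma adjusted p = 0.0507) missed the threshold, as it did in 10 of 13 alternatives, and passed it with quantile normalization (0.0499), the stricter filter (0.0147) and trend and robust eBayes (0.0247). The mean of its probe sets gave 0.28 (adjusted p = 0.133), the second and dim one having a difference of 0.15. Adam33, the remaining tested gene of this group, had 0.38 (limma adjusted p = 0.0719), and Adam28 was too dim to test.

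The 3 somatic ADAMs without a protease site, known as adhesion proteins of the nervous system, were tested and none was called. Adam11 measured 2.85 and 2.72 against 3.13 and 3.27, with a difference of 0.42 (limma adjusted p = 0.0697). Adam23 (6.56 and 6.55 against 6.95 and 6.76) had 0.30 and Adam22, the receptor of the secreted protein LGI1, −0.17.

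**Figure D3:**
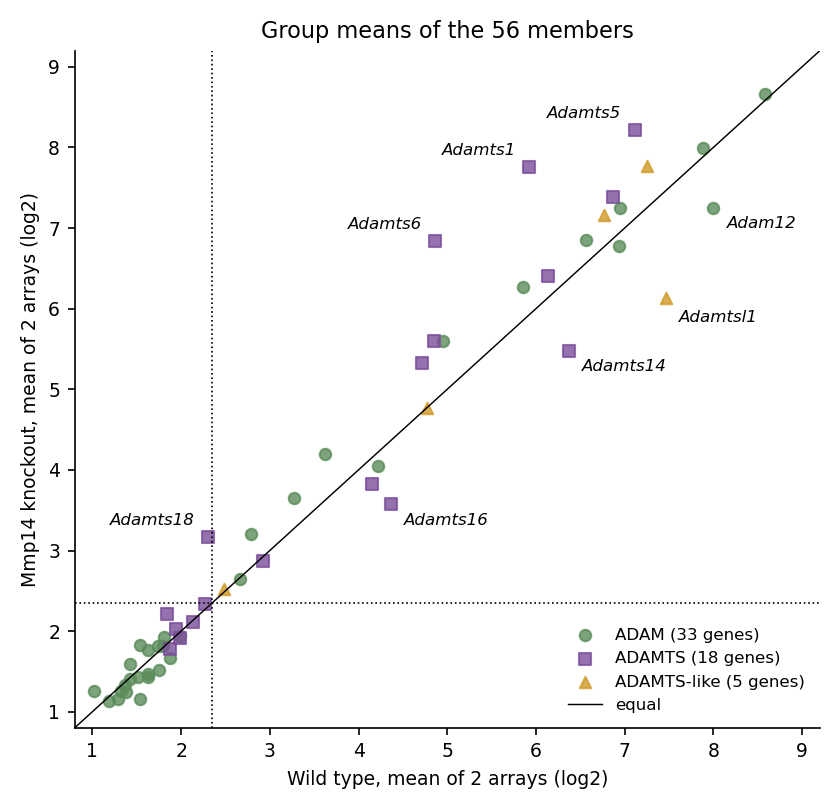
Mean of the 2 knockout arrays against the mean of the 2 wild-type arrays (both log2) for all 56 members, with the line of equal values and the level for dim genes (2.34) dotted on both axes. The 26 members under the filter crowd at the lower left, 20 of them ADAM genes, and Adamts18 lies above the level in knockout alone among the tested genes.

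The other 21 ADAM genes are known mainly from testis and the reproductive tract, and 19 of them were under the filter. Over these and Adam28, the 20 untested ADAM genes, values ran from 0.94 to 2.0 on all arrays. Adam1a, a subunit of the sperm protein fertilin, was tested with a difference of −0.03 (interval −0.31 to 0.26). Adam5, which is expressed in testis, measured 3.73 and 3.51 in wild type against 4.16 and 4.23 in knockout and rose by 0.58 (limma, SE 0.119 and adjusted p = 0.0339).

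Adam5 lies on chromosome 8 in a row of 5 adjacent members, Adam18, Adam3, Adam5, Adam32 and Adam9. The means of Adam18, Adam3 and Adam32 ran from 1.33 to 1.81 in both groups, and Adam9 was not called. The 3 measured germ cell markers, Ddx4, Dazl and Tnp1, were below the level for dim genes. Their summed log2 value was 4.88 to 5.43 in wild type and 5.557 to 5.597 in knockout, and values this dim do not measure germ cell content. The call of Adam5 was kept when wild-type array 1 was left out but lost for each of the other 3 arrays (adjusted p from 0.099 to 0.128), and it was lost with no filter on dim genes (0.0517).

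**Figure D4:**
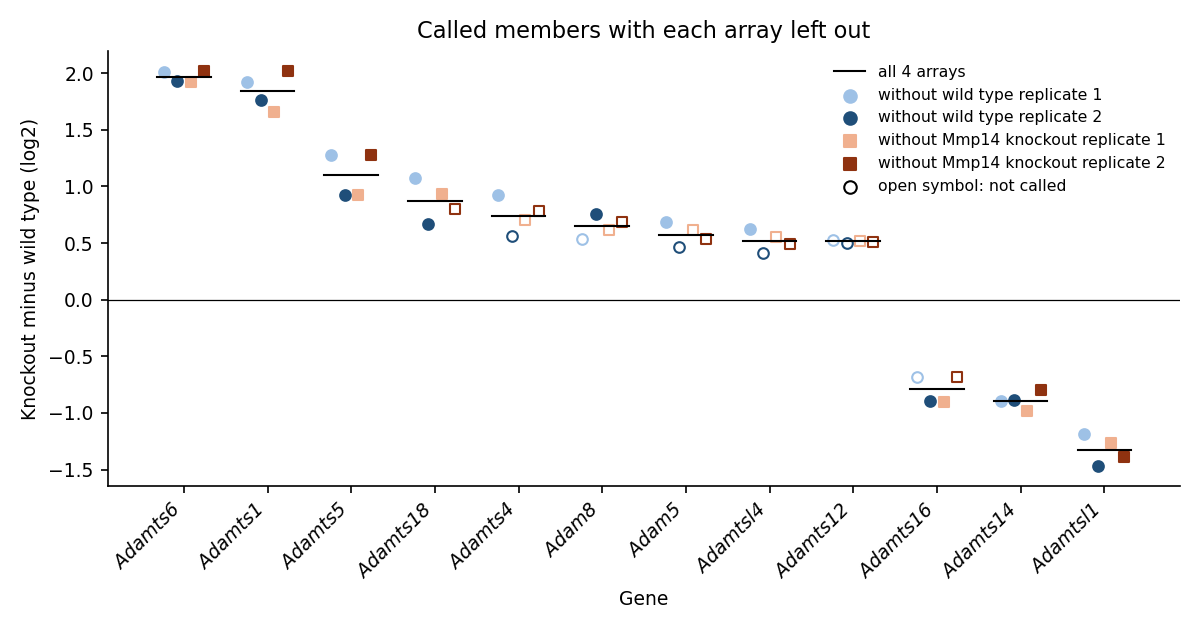
Difference between knockout and wild type (log2, vertical axis) for the 12 called members with all 4 arrays (black line) and with each array left out (symbols, open where the adjusted p is 0.05 or more). Adamts6, Adamts1, Adamts5, Adamts14 and Adamtsl1 keep their call in all 4 cases, and Adamts12 in none.

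With an array left out, its group is a single array that is assumed to vary like the other group, so the spread comes from the 2 arrays of the other group and from the spread pooled over genes. Under that assumption, 5 of the 12 calls were kept in all 4 cases, those of Adamts6, Adamts1, Adamts5, Adamts14 and Adamtsl1. In a fit of every probe set on the array without a filter, 2 were kept, Adamts6 (adjusted p = 0.03) and Adamts1 (0.0422). No call changed direction under any of the alternatives. None of the tested members lies on chromosome 14, where Mmp14 is, and no member lies on the X chromosome.

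Genes that act with or against these proteases were read from the same fit, in which 6.20% of all tested genes were called higher and 5.12% lower. Of the inhibitors, Timp3, which blocks the aggrecanases and Adam17, measured 8.79 and 8.71 in wild type against 8.33 and 8.11 in knockout and fell by 0.53 (limma adjusted p = 0.0443). Timp1, a broad inhibitor of metalloproteinases, measured 8.86 on both wild-type arrays and 8.21 and 8.38 in knockout and fell by 0.56 (limma adjusted p = 0.0288). Neither call survived the loss of any 1 array (adjusted p from 0.0755 to 0.191 for Timp3 and from 0.0585 to 0.16 for Timp1), and both were lost in other settings too, that of Timp3 with quantile normalization (0.0556) and with no filter on dim genes (0.0689). Timp2 (0.15) and the membrane inhibitor Reck (0.30) were not called, and Timp4 was too dim to test.

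The partners that carry Adam10 and Adam17 to the cell surface and the convertases that cut ADAM prodomains showed no call among 11 tested genes. With 6.20% of all tested genes called higher and 5.12% lower, the lack of a call among 11 genes says little. Rhbdf1, an iRhom that escorts Adam17, had the largest difference (0.47, limma adjusted p = 0.0541) and was called under the stricter filter and with trend and robust eBayes, while Rhbdf2, the other iRhom, had 0.01. Frmd8, which holds iRhoms and Adam17 at the surface, had −0.18. The tetraspanin genes Tspan5, Tspan14, Tspan15 and Tspan17, partners of Adam10, had −0.26, 0.06, 0.17 and −0.11. The convertase gene Furin had −0.19, and Pcsk5, Pcsk6 and Pcsk7 had 0.13, 0.15 and −0.34. Pcsk7 was called under the stricter filter (limma adjusted p = 0.0317).

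**Figure D5:**
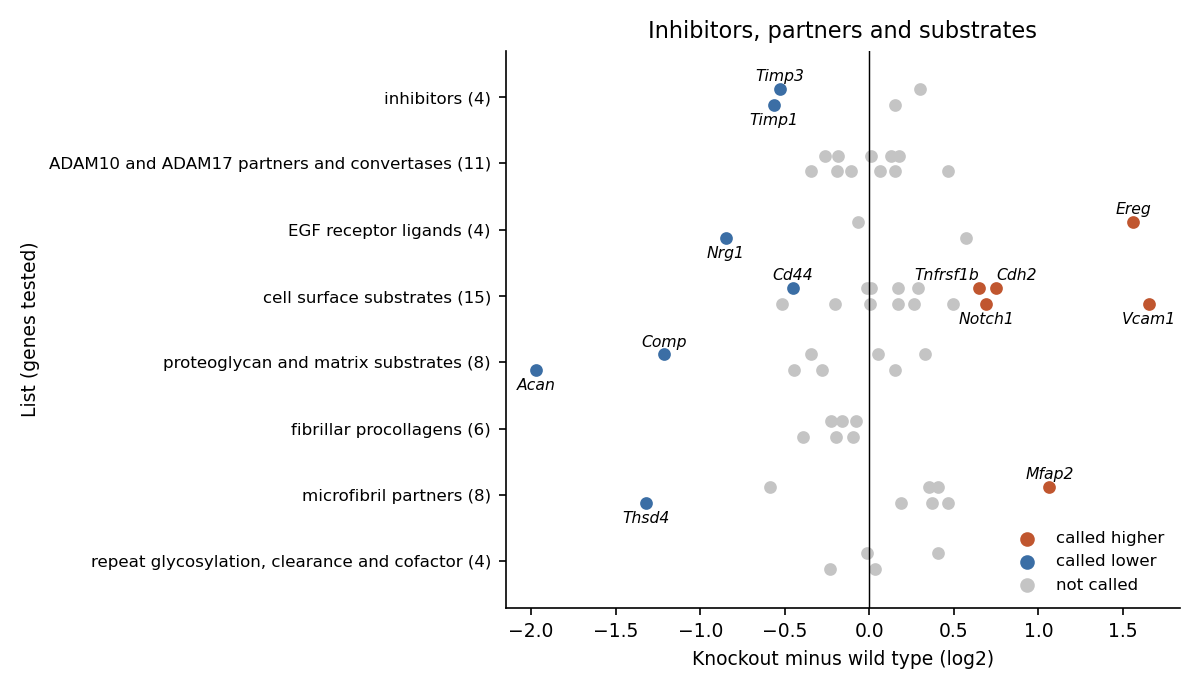
Difference between knockout and wild type (log2, horizontal axis) of the tested genes of 8 lists of inhibitors, partners and substrates, 1 point a gene, with called genes coloured and named. Acan (−1.97) is the lowest and Vcam1 (1.65) the highest, and no partner, procollagen or repeat glycosylation gene was called.

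Of 15 tested genes for cell surface substrates of ADAMs, 4 rose, 1 fell and 10 were not called, with a median of 0.17. Over all tested genes, 6.20% were called higher and 5.12% lower. Vcam1, an adhesion molecule shed by Adam17, measured 7.29 and 7.22 in wild type against 8.96 and 8.86 in knockout and rose by 1.65 (limma adjusted p = 0.00104). Cdh2, which encodes N-cadherin and is cut by Adam10, rose by 0.75, Notch1 by 0.69 and the TNF receptor gene Tnfrsf1b by 0.65, and Cd44 fell by 0.45. With 1 array left out, the call of Cdh2 was lost for knockout array 1 (adjusted p = 0.0548) and that of Notch1 for wild-type array 1 (0.082) and knockout array 1 (0.133). That of Tnfrsf1b was lost for wild-type array 2 (0.0593) and for both knockout arrays (0.0916 and 0.0515), and that of Cd44 for every array (0.0709 to 0.185). Of 4 tested EGF receptor ligand genes, Ereg (epiregulin) rose by 1.56 (limma adjusted p = 0.00768) and Nrg1 (neuregulin) fell by 0.85 (limma adjusted p = 0.0125). Ereg had a difference of 0.67 over the mean of its probe sets. Hbegf (−0.06) and Tgfa (0.57) were not called.

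Of 8 tested proteoglycan and matrix substrates of ADAMTS proteases, 2 fell, 6 were not called and 0 rose, with a median of −0.31. The shares over all tested genes were 5.12% lower and 6.20% higher. Acan, which encodes aggrecan, measured 9.70 on both wild-type arrays and 7.40 and 8.07 in knockout. It fell by 1.97 (limma, SE 0.218 and adjusted p = 0.00469) in the same arrays in which Adamts1, Adamts4 and Adamts5 rose. Comp, the cartilage protein that Adamts7 and Adamts12 can cut, fell by 1.21 (limma adjusted p = 0.00267), from 8.69 and 8.86 to 7.60 and 7.52. Vcan, which encodes versican, measured 6.00 and 5.79 against 6.36 and 6.09, a difference of 0.33 that was not called. The others not called were Fmod (−0.45, limma adjusted p = 0.0507), Dcn (−0.34), Lum (−0.28), Bgn (0.05) and Ncan (0.15). These are RNA levels and do not measure cleavage.

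None of the 6 fibrillar procollagen genes was called, with differences from −0.39 for Col5a1 to −0.08 for Col2a1, among them Col1a1 (−0.16) and Col3a1 (−0.10). Of 8 tested microfibril genes, 1 rose, 1 fell and 6 were not called, where 6.20% of all tested genes were called higher and 5.12% lower. Mfap2, a component of microfibrils, rose by 1.07 (limma adjusted p = 0.0163), from 5.58 and 6.02 to 6.74 and 6.99. Thsd4, an ADAMTS-like gene also known as ADAMTSL6, was not a member by symbol. It measured 4.82 and 4.56 in wild type against 3.31 and 3.44 in knockout and fell by 1.32 (limma adjusted p = 0.00329). The 6 that were not called were Mfap5 (−0.58, limma adjusted p = 0.0557), Ltbp3 (0.47, 0.0515), the fibrillin gene Fbn2 (0.41), Ltbp4 (0.37), Ltbp2 (0.35) and Ltbp1 (0.19). The fibrillin gene Fbn1 was not analysed here. The enzymes that glycosylate thrombospondin repeats, Pofut2 (−0.23) and B3glct (0.03), the clearance receptor Lrp1 (0.41) and Fbln1, a cofactor of Adamts1 (−0.01), were not called.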

How the data were processed

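The deposited table gave a log2 intensity for each of 41345 probe sets on each of the 4 arrays. Per the labels' protocols, each array started from 10 ng of total RNA. Limma and oligo are named in the submitters' processing notes. The normalization and build are not given in the sources used here.

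Symbols came from the platform annotation: 23521 probe sets had 1 symbol, 1814 several and 16010 no listed symbol, and a gene took its brightest probe set. Genes with a mean of at least 2.34, the median row mean of the table, entered 1 fit of 12708 genes (limma 3.58.1, R 4.3.3, lmFit and eBayes, two-sided, 2 residual degrees of freedom). The fit was run on simulated arrays drawn from its own pooled spread, which does not check the calls in these data. P-values were adjusted over all genes tested. Intervals are 95% and unadjusted. Every tested member is named. Gene order and promoters came from RefSeq GRCm38.p6, in which all 56 members were found. The members, lists, clades and motifs were chosen with earlier results of these data known.

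Alternatives were no filter, a stricter filter (75th percentile of row means), a replicate block, quantile normalization, median centring, trend and robust eBayes, array weights, averaging all probe sets of a gene, every probe set in 1 fit, and leaving out each array.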

Additional observations from a re-analysis of the deposited data

How the results depend on the processing

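The 9 higher and 3 lower calls became 2 and 0 when every probe set was fitted without a filter, and ranged from 4 to 7 higher and 2 to 3 lower with each array left out. Under the other 8 alternatives they ranged from 6 to 10 higher and from 3 to 4 lower, with the same members except Adam5, Adamts12, Adamts16, Adamts18 and Adamtsl4, each lost or not tested under at least 1, and Adam12 and Adam19, each gained. The replicate block gave 6 higher and 3 lower, without the calls of Adam5 (adjusted p = 0.0654), Adamts12 (0.059) and Adamtsl4 (0.0784). It also ended those of Timp1 (0.0558), Timp3 (0.0612), Notch1 (0.0652), Cd44 (0.086) and Eif2s3y (0.085). The labels do not say that the numbers pair arrays, so the numbers were not taken as pairs. Over the tested genes, arrays sharing a number deviated from the group mean with a correlation of −0.04, which does not exclude pairing. Over all genes, 1439 calls became 2099 with trend and robust eBayes, 218 with every probe set and 687 to 1131 with 1 array left out.

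Only differences that were not called changed sign. With each array left out they ranged from −0.067 to 0.14 for Adamtsl2, −0.23 to 0.11 for Adamts17, −0.077 to 0.070 for Adamtsl5, −0.13 to 0.077 for Adam1a, −0.22 to 0.25 for Rhbdf2, −0.0046 to 0.13 for Tspan14, −0.14 to 0.49 for Tspan15 and −0.00085 to 0.26 for Pcsk5. Rhbdf2 was −0.016 with quantile normalization and −0.0089 with median centring. The causes were not tested.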
